A study of Mus musculus with 14 samples.

Results

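The regions described here are promoter regions that carry H3K27ac in mouse small intestinal organoids and at which no differential binding site of the transcription factor ONECUT2 was listed. They were the 2000-bp regions of the deposited H3K27ac count table that contain an annotated transcription start of a protein-coding gene and overlap no site of the authors' ONECUT2 table by 1 bp or more. In all, 10188 of 55050 regions (18.5%) met the rule. They made up 93.9% of the 10845 promoter regions, and the other 657 promoter regions overlapped a listed site. A start was known by strand for 8376 of the regions. The other 1812 hold either end of a gene whose strand was not in the reference tables, so some of these may mark the 3′ end. The regions hold the starts of 10908 genes, and 828 regions hold 2 or more starts known by strand, in 803 of them on opposite strands. The authors' deposited table is limited to sites whose FDR is at most 0.0496, with 7261 higher and 7 lower after the RANKL protocol. A promoter without a listed site is therefore one without a listed difference, and ONECUT2 may still bind it at a level that did not differ.

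Organoids came from a female Lgr5GFPDTR/+ mouse, labelled wild type, and all libraries came from the line of this 1 animal. In the M cell arm they were given 3 µM CHIR99021, which activates Wnt signalling, and 1.5 mM valproic acid, which inhibits histone deacetylases, for 3 days, then a day of ENR medium, named for its EGF, Noggin and R-spondin, and then 100 ng/mL RANKL for 6 days. Controls were kept in ENR medium. The contrast is thus the whole protocol against ENR medium, and RANKL, CHIR99021 and valproic acid cannot be told apart. H3K27ac was measured by ChIPmentation, an immunoprecipitation of chromatin with adapters added by Tn5 transposase on the beads, in 3 libraries of each arm from 3 independent differentiation experiments.

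Promoters are the stretches around a transcription start where RNA polymerase II and general transcription factors assemble. Acetylation of histone H3 at lysine 27 is laid down there and at enhancers by CBP and p300 and removed by histone deacetylases, and it marks promoters in use. Many promoters of genes that every cell needs lie in CpG islands and hold binding sites for factors such as SP1, NF-Y, NRF1 and ETS proteins, while promoters of tissue-restricted genes are more often poor in CpG. ONECUT2 is a homeodomain and cut-domain factor of endodermal epithelia, and RANKL drives differentiation of microfold (M) cells, the antigen-sampling cells of the gut epithelium, through NF-kB.

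The promoters below show the range of sequences behind the results, from RefSeq (GRCm38.p6, the assembly behind mm10). Each runs 5′ to 3′ on the gene's strand, from 250 bases before to 50 after the start. Capitals mark matches, on either strand, to the short motifs searched: CCAAT (NF-Y), GGGCGG (SP and KLF factors), CCGGAAG (ETS), GAGGAAGT (ETS of the SPI1 and SPIB type) and GCATGCGC (NRF1). None of the other motifs searched matched in these 6. Ccdc33 (chr9:58102248-58102547, minus strand) and Plb1 (chr5:32353330-32353629, plus strand) lie in regions that gained H3K27ac most clearly, and both are poor in CpG, with observed over expected CpG of 0.19 and 0.057.
Ccdc33: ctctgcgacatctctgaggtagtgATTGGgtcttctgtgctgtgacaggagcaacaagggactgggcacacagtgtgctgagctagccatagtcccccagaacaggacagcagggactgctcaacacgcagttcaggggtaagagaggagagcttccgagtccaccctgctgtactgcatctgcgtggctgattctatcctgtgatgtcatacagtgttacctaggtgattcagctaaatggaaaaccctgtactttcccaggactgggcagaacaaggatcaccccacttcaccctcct
Plb1: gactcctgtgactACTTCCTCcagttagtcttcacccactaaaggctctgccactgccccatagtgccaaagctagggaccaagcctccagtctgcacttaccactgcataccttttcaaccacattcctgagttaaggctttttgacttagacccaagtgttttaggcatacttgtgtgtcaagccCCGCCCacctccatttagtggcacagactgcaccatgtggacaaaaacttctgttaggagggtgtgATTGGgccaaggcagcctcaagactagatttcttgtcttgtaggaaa
Slc35f2 (chr9:53771285-53771584, plus strand) and Cracdl (chr1:37719762-37720061, minus strand) lie in regions that lost it most clearly among those with a sequence. The first has a CpG ratio of 0.22 and the second, at 81.0% GC, a ratio near 1.
Slc35f2: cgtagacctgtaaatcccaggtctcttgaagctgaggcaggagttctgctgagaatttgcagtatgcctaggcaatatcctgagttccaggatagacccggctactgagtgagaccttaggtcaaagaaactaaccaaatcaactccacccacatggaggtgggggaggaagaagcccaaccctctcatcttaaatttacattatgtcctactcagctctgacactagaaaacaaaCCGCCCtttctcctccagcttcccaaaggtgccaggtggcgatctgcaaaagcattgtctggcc
Cracdl: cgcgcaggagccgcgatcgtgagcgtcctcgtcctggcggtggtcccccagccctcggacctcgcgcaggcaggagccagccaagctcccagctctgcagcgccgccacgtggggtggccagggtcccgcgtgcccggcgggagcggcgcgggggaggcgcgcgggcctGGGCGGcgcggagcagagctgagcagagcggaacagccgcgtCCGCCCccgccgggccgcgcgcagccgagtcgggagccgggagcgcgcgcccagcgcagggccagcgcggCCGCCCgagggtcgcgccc
Rela (chr19:5637291-5637590, plus strand) and Mrps18b (chr17:35916391-35916690, minus strand, in a region shared with Ppp1r10) lie in 2 of the 5 regions with the highest mean H3K27ac among the promoter regions without a site, and neither region passed the test for a change.
Rela: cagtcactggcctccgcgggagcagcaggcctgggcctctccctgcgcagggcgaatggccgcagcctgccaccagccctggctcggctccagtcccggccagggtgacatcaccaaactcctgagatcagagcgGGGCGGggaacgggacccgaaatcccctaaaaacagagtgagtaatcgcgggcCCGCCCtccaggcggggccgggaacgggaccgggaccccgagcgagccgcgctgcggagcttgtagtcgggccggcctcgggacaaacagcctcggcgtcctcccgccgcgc
Mrps18b: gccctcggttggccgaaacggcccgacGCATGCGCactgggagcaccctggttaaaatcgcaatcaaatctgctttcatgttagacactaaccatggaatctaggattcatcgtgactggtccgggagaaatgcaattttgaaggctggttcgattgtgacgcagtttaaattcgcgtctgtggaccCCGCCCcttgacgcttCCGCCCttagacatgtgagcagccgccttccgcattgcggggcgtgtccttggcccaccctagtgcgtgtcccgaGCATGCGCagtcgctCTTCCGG

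Read totals over the regions ran from 5434172 to 9160267 in control libraries and from 2745451 to 3902301 in RANKL libraries. Within an arm every pair of libraries differed beyond counting noise (chi-square over degrees of freedom 1.80 to 2.06), and each was a sample of its own. Levels are given as CPM, counts scaled to the TMM-normalised library size. Every region is 2000 bp long, so levels were set side by side between regions without a correction for length. No other correction between regions was made, and input libraries were not used. A region was called when its adjusted p was under 0.05 in edgeR's quasi-likelihood test over all 54765 regions that passed the filter on low counts. No spike-in was used, so every fold is relative to the scaling, and in bulk organoids fewer cells with the mark and less mark per cell cannot be told apart. Of the marker lists, 11 of 12 epithelial genes had such a promoter region, against 3 of 12 mesenchymal, 0 of 11 endothelial and 1 of 13 leukocyte genes. The mesenchymal regions (Col1a1, Myh11 and Vim) lay at mean levels of 2.27 to 4.98 CPM in both arms.

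Promoter regions without a site took a smaller share of the H3K27ac reads in the listed regions after the RANKL protocol. They held 43.0%, 41.4% and 43.0% of the reads in control libraries 1 to 3 and 36.2%, 36.0% and 35.1% in RANKL libraries 1 to 3. The arms did not overlap, and the share fell by 6.71 percentage points, from 42.5% ± 0.88 to 35.7% ± 0.58 (SD, n = 3 each). The exact two-sided permutation p was 0.10, the smallest that 3 against 3 libraries allow. With the experiment number as a block, the permutation p was 0.25. The median level per region was 41.2, 39.3 and 40.7 CPM in the controls and 29.3, 29.3 and 27.7 CPM with RANKL. Promoter regions with a site also held a smaller share, 3.54% ± 0.13 in the controls and 3.12% ± 0.061 with RANKL. The share in regions away from gene starts and without a site went the other way, from 49.7% ± 1.01 to 56.0% ± 0.64 of reads. The log2 ratio of reads per region between promoter regions and these others was 1.85, 1.75 and 1.85 in the controls and 1.42, 1.41 and 1.35 with RANKL.

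**Figure D1:**
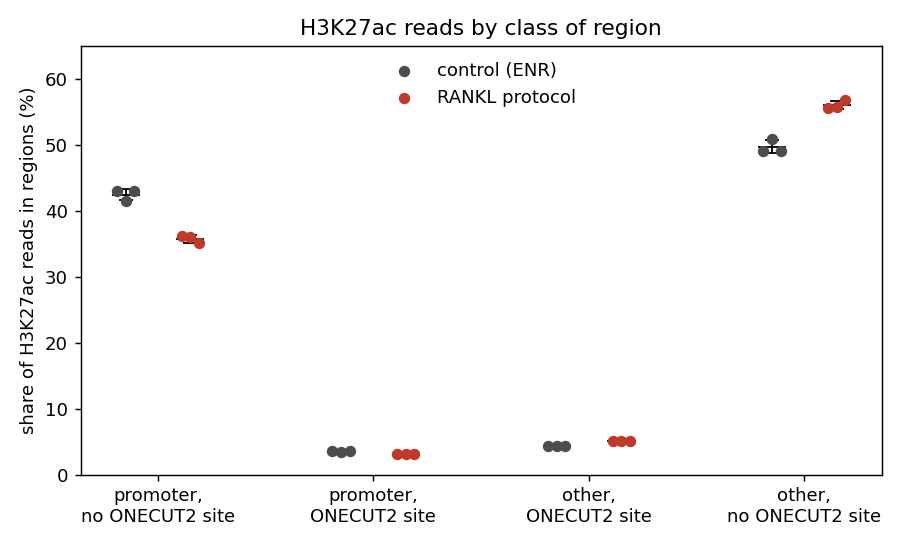
Share of H3K27ac reads (y axis, percent of all reads in regions) in 4 classes of region (x axis), with 1 point per library, grey for control and red for RANKL, and the mean and SD of 3 libraries in black. Promoter regions without an ONECUT2 site lie between 41.4% and 43.0% in the controls and between 35.1% and 36.2% with RANKL.

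Region by region, 10156 of the 10188 could be tested, and 32 fell under the filter on low counts. Of these, 5440 (53.6%) were called lower and 526 (5.18%) higher. Over all regions tested 35.9% were called, 21.0% lower and 14.8% higher. The median log2 fold was -0.38, with quartiles of -0.66 and -0.09, beside 0.06 over all regions and 0.17 over all regions other than these. A log2 fold of at least 1 was called at 151 promoter regions (1.49%, against 7.53% of all regions), and one of -1 or below at 705 (6.94%, against 3.88%). The size of the shift depends on the scaling. With TMM factors taken from these promoters alone, which sets their median near 0 by construction and moves the median of all regions from 0.06 to 0.43, 2162 were higher and 2238 lower. With the trend of fold against signal removed, 1209 were higher and 3508 lower, so that 25.6% of calls were higher, against 8.82% with the standard TMM factors.

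With the standard TMM factors, promoter regions with a listed ONECUT2 site had nearly the same values. Of 657, 382 (58.1%) were called lower and 40 (6.09%) higher, with a median log2 fold of -0.38. The 2 classes were not matched for signal, with median levels of 46.3 CPM with a site and 35.2 CPM without. With the signal trend removed, the medians were -0.14 with a site and -0.18 without. Higher calls were then 34.0% and 25.6% of all calls in the 2 classes, in the same order. A small difference appeared in the summed reads. The log2 ratio of reads per region, promoters without a site over promoters with a site, was -0.38, -0.34 and -0.38 in the controls and -0.44, -0.44 and -0.43 with RANKL. The arms did not overlap, the ratio fell by 0.067, and the exact two-sided permutation p was 0.10, again the smallest possible. With the experiment number as a block, this p was also 0.25. Away from gene starts, regions with a site had a median of 0.16 and regions without one a median of 0.18.

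The values varied little with distance to the nearest listed site. In the 675 tested promoter regions with a site within 5 kb, the median log2 fold was -0.32, with 6.96% called higher and 51.9% lower. Beyond 100 kb (3947 regions) the median was -0.38, with 4.71% higher and 52.4% lower. The bins between them, from 5 to 20 kb and from 20 to 100 kb, had medians of -0.38 and -0.39. Just outside the rule's boundary, the 144 promoter regions that a site overlaps only in part had a median of -0.36. Just inside it, the 118 regions with a site at most 500 bp away had a median of -0.29.

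The change varied with the strength of the mark. Promoters were strong regions: 73.3% of those tested lay in the top 3 deciles of mean signal, and they made up 62.2% of the top decile. In the weakest decile the median log2 fold of the 346 promoter regions was -0.01. In deciles 2 and 3 it was 0.12. It fell through -0.22 in decile 5 to -0.53 in decile 8, where 67.0% of 1471 were called lower, and came back to -0.32 in the top decile, where 56.3% of 3409 were called lower. Regions away from gene starts without a site also fell with signal, from 0.31 in the weakest decile to -0.16 in the top decile. The promoters' median lay below theirs in each of the 10 deciles. Promoter regions with a site had medians of -0.48 in deciles 8 and 9 and -0.30 in the top decile. Regions of higher counts pass the test more easily, so the shares called rise with signal in part by construction.

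**Figure D2:**
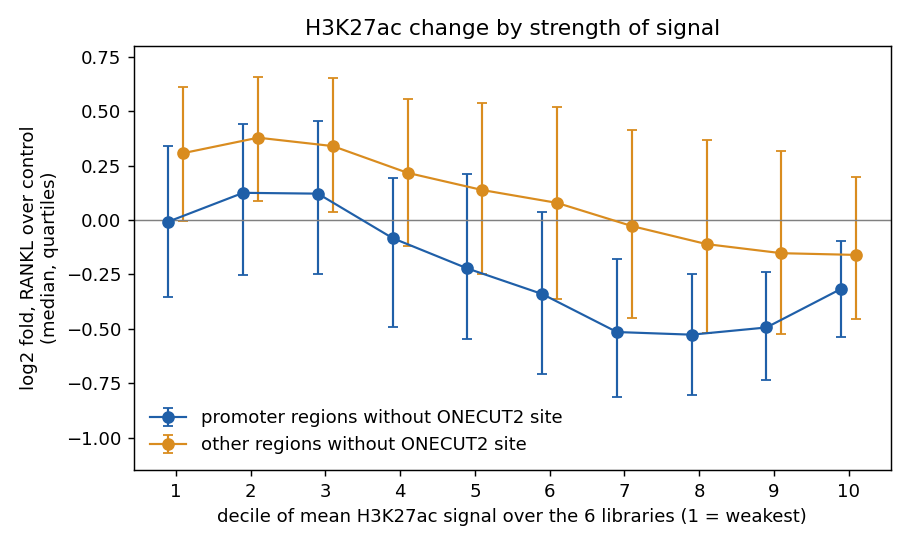
Median log2 fold of H3K27ac, RANKL over control, with quartiles as bars (y axis), by decile of mean signal over the 6 libraries (x axis), for promoter regions without an ONECUT2 site (blue) and other regions without a site (orange). The promoters' median lies below that of the other regions in each decile and is lowest, at -0.53, in decile 8.

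The log2 fold was lower at the promoter than around it. For 6524 promoter regions another H3K27ac region away from gene starts lay within 20 kb. There the promoters had a median log2 fold of -0.39 and the neighbouring regions 0.02, and the promoter was below its neighbours at 74.6% of them. Around promoters called higher with a log2 fold of at least 1, the neighbours had a median of 0.45. Around those called lower with a log2 fold of -1 or below, it was -0.17. Where a neighbour held an ONECUT2 site (599 promoters), the promoter's median was -0.36, and -0.39 where none did. Neighbours were not matched to promoters for signal, and the fold fell with signal. The median level was 35.2 CPM over tested promoter regions without a site and 7.20 CPM over regions away from gene starts without one. Whether promoters lost the mark or their neighbours gained it rests on the scaling.

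Regions with 2 or more starts known by strand, mostly divergent gene pairs, were lower more often than those with a single one. Of 828, 571 (69.0%) were called lower and 25 (3.02%) higher, with a median of -0.45. Of the 7525 tested regions with 1 start, 52.5% were lower and 5.30% higher, with a median of -0.38. They were also stronger, with a median level of 49.2 CPM against 34.4 CPM. The clearest single case was the region shared by Pcna, the sliding clamp of DNA polymerase, and Cds2, a CDP-diacylglycerol synthase (chr2:132252313-132254313). Its levels were 60.3, 56.1 and 62.6 CPM in the controls and 20.7, 15.7 and 21.5 CPM with RANKL, so no RANKL library came near a control. The fold was 3.07 lower (log2 fold -1.62, SE 0.13, adjusted p = 7.3e-29). The regions of Il17rb and Chdh, Gpat3 and Abraxas1, Lmf2 and Ncaph2, and Septin10 and Sowahc followed, with log2 folds from -1.59 to -1.31. At such a region the signal cannot be assigned to either gene.

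The clearest gains started from low control levels. The region at Ccdc33, a gene for a coiled-coil protein (chr9:58101320-58103320), had 3.86, 5.83 and 3.19 CPM in the controls and 129, 138 and 110 CPM with RANKL. All RANKL libraries lay far above all controls, at 27.4 times their fitted level (log2 fold 4.78, SE 0.15, adjusted p = 9.6e-133). It was the highest fold of any tested promoter region without a site. Plb1 encodes a phospholipase B of the brush border (chr5:32351930-32353930). Its levels were 5.41, 9.02 and 6.38 CPM in the controls and 78.5, 61.0 and 85.4 CPM with RANKL, a 10.3-fold gain (log2 fold 3.37, SE 0.14, adjusted p = 5.9e-87). H2-M2, a non-classical MHC class I gene (chr17:37482671-37484671), had 1.93, 4.40 and 5.63 CPM in the controls and 65.3, 61.0 and 54.5 CPM with RANKL. The gain was 14.6-fold, on control levels of few reads. Adamts13 encodes the protease that cleaves von Willebrand factor (chr2:26973082-26975082). It rose from 6.38, 7.15 and 6.56 CPM to 66.4, 77.0 and 65.8 CPM, and the nearest listed ONECUT2 site was 373 kb away. Tank, whose product binds TRAF proteins and regulates NF-kB and interferon signalling (chr2:61577574-61579574), rose from 3.67, 3.74 and 5.81 CPM to 56.4, 64.0 and 49.4 CPM, 13.0-fold. Vmo1, Dnajc18, a co-chaperone gene whose region was found by either gene end, and the predicted gene Gm14137 completed the 8 clearest gains, at 8.23-fold, 10.2-fold and 5.75-fold. The rule that chose these 8, and the 8 losses that follow, asked that the arms not overlap.

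The clearest losses started from high control levels. Slc35f2 encodes a solute carrier (chr9:53770650-53772650). Its levels were 50.2, 53.0 and 53.1 CPM in the controls and 10.0, 6.94 and 5.06 CPM with RANKL, a 7.38-fold loss (log2 fold -2.88, SE 0.17, adjusted p = 9.0e-53). It was the lowest fold of any tested promoter region without a site. Bmp3, a member of the BMP ligand family (chr5:98854380-98856380, either gene end), fell from 55.3, 53.0 and 55.9 CPM to 10.4, 8.76 and 6.75 CPM, 6.48-fold. Rara is the retinoic acid receptor alpha (chr11:98962932-98964932). It had 85.0, 73.9 and 91.1 CPM in the controls and 18.9, 19.9 and 21.2 CPM with RANKL, a 4.11-fold loss. Galnt7, which encodes a transferase of mucin-type O-glycosylation (chr8:57652649-57654649), fell from 58.9, 52.6 and 53.6 CPM to 12.9, 10.6 and 9.65 CPM, 5.05-fold. Kcnk1, a potassium channel gene (chr8:125994469-125996469), fell from 109, 85.4 and 107 CPM to 28.2, 30.2 and 24.1 CPM, 3.65-fold. Cracdl, Fam174b and the region of the interferon-induced neighbours Ifi27l2a and Ifi27, found by either gene end, fell 5.77-fold, 4.85-fold and 4.41-fold. These 16 regions kept their direction and their call under each scaling, test and left-out library tried.

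**Figure D3:**
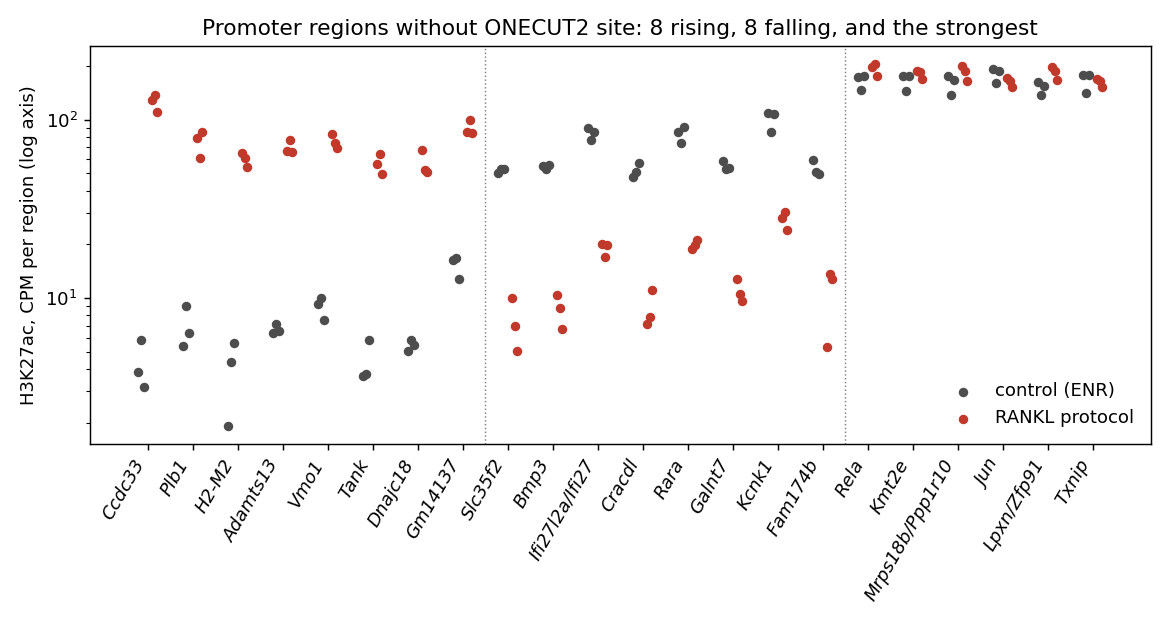
H3K27ac level per library (y axis, CPM on a log axis) at the 8 clearest gains, the 8 clearest losses and 6 of the strongest promoter regions without an ONECUT2 site (x axis, by gene), grey for control and red for RANKL. The arms are apart at the first 16 regions, as the rule that chose them asked, and close together, between 137 and 205 CPM, at the last 6.

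The strongest promoters showed small differences. Rela encodes the p65 subunit of NF-kB (chr19:5636419-5638419), and its region had the highest mean level. It had 174, 147 and 176 CPM in the controls and 197, 205 and 176 CPM with RANKL, a 1.17-fold difference with an adjusted p of 0.079. Kmt2e, the region of Mrps18b and Ppp1r10, Jun and Txnip had log2 folds of 0.13, 0.20, -0.14 and -0.02, with adjusted p from 0.13 to 0.89. Of the 5 strongest, the region of Lpxn and Zfp91 alone was called, at a log2 fold of 0.28 (adjusted p = 0.023). That call was lost without RANKL replicate 1, RANKL replicate 2 or control replicate 3, and with the experiment number as a block (adjusted p = 0.067). Rela, Kmt2e and the region of Mrps18b and Ppp1r10 were called higher on library size alone, at log2 folds of 0.32, 0.23 and 0.29, and also with the signal trend removed or the scaling from these promoters.

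A list of NF-kB members, regulators and target genes went, as a whole, against the general loss. RANKL signals through NF-kB. NF-kB dimers are held in the cytoplasm by IkB proteins and freed by IKK kinases in the canonical branch, while in the alternative branch the kinase NIK (Map3k14) acts on the precursor made from Nfkb2. Of 29 listed genes 22 had a promoter region without a site, in 24 tested regions, of which 10 were called higher and 6 lower. The median log2 fold was 0.20, and 41.7% were higher, against 5.18% of all promoter regions without a site and 14.8% of all regions. The higher calls outnumbered the lower under each of the 5 scalings tried.

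The highest fold of the list was at Icam1, which encodes an adhesion molecule for leukocytes (chr9:21015755-21017755). It had 7.34, 6.60 and 7.31 CPM in the controls and 61.4, 55.2 and 53.1 CPM with RANKL, an 8.01-fold gain (log2 fold 3.00, SE 0.15, adjusted p = 1.2e-65). Nfkbia encodes IkB alpha (chr12:55490996-55492996). Its levels were 58.6, 57.4 and 61.9 CPM in the controls and 201, 203 and 173 CPM with RANKL, which placed it among the strongest promoters after a 3.24-fold gain. Nfkbie, the gene of IkB epsilon, rose 2.89-fold from 12.9, 14.3 and 13.9 CPM to 33.9, 39.2 and 45.3 CPM. Birc3 and Traf3, whose products are part of the complex that degrades NIK, rose 2.20-fold and 1.81-fold, and Tnfaip3, which encodes the inhibitor A20, 1.55-fold. Among the subunits, Nfkb2 (chr19:46303574-46305574) went from 129, 112 and 121 CPM to 213, 183 and 175 CPM, a 1.58-fold gain, and Relb, its partner, rose 1.52-fold. Nfkb1 and Rela had folds of 1.17 each and were not called, and Rel fell 1.25-fold (adjusted p = 0.010). The kinase genes were on the other side. Map3k14 fell 1.88-fold, from 46.6, 41.3 and 36.2 CPM to 21.1, 21.4 and 23.1 CPM, and Ikbkb fell 1.38-fold. Cd14, a receptor for lipopolysaccharide on the leukocyte list and the only leukocyte marker with such a region (either gene end), rose 1.35-fold.

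The M cell list moved both ways. Of 30 genes 19 had a promoter region without a site. In 20 tested regions 8 (40.0%) were called higher and 4 (20.0%) lower, against 5.18% and 53.6% of all promoter regions without a site. The median was -0.16, which turned positive when the trend with signal was removed or the scaling came from these promoters. Nfkb2 and Relb are also on the NF-kB list, and Fosl1 on the immediate-early list. Ccl9, a chemokine of M cells (chr11:83577568-83579568), had 5.80, 6.49 and 8.06 CPM in the controls and 57.5, 49.5 and 50.4 CPM with RANKL, a 7.72-fold gain. Spib, the ETS factor that M cells require (chr7:44531136-44533136), went from 5.60, 13.6 and 7.50 CPM to 32.5, 46.2 and 36.9 CPM, with the nearest listed ONECUT2 site 255 kb away. Prnp rose 2.57-fold and the region of Anxa5 2.04-fold. Tmsb4x and Marcksl1 rose 1.45-fold each. Of the 4 regions called lower, the clearest was that of Fosl1 (either gene end). It fell 1.94-fold, from 34.2, 31.7 and 29.1 CPM to 13.2, 13.6 and 21.0 CPM. The rest of the regions called lower are not named here, so the named genes lean towards gains more than the list does.

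Promoters of DNA replication and mitosis genes fell together. Of 43 tested regions 39 (90.7%) were called lower and 0 higher, with a median log2 fold of -0.83. Over all promoter regions without a site 53.6% were lower and the median was -0.38, and these are the values beside which the counts of this and the following lists stand. The direction was the same under the 5 scalings tried, with 25 lower and 0 higher when the scaling came from these promoters. In this and each other list below with 0 regions called higher by edgeR, 0 were higher at an unadjusted p under 0.05, and DESeq2 called 0 higher. Mcm5 encodes a subunit of the replicative helicase (chr8:75108407-75110407). It had 43.3, 43.9 and 44.6 CPM in the controls and 11.4, 13.0 and 16.6 CPM with RANKL, a 3.14-fold loss (log2 fold -1.65, SE 0.15, adjusted p = 1.2e-24). E2f1, which drives the G1 to S transition, fell 2.61-fold, from 43.9, 37.8 and 41.1 CPM to 18.2, 14.8 and 14.2 CPM, and Rrm2, a subunit of ribonucleotide reductase, 2.58-fold. Some genes of mitosis moved less. Mki67 fell 1.31-fold and Kif11, a spindle motor gene and the strongest of the list, 1.63-fold, while Cdc20 had 46.2 ± 6.29 CPM in the controls and 42.3 ± 5.47 CPM with RANKL (SD, n = 3 each) and was not called.

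The list of stem cell genes and Wnt targets had a share of lower calls near that of all such promoters, with a lower median. In 21 tested regions of 18 genes 13 (61.9%, against 53.6%) were called lower and 2 higher, 6 were not called, and the median was -0.76, beside -0.38. The higher calls were an end of Sox9 and Tnfrsf19, a receptor gene of the TNF family, which rose 1.31-fold (adjusted p = 0.020). Lower calls outnumbered higher ones under the 5 scalings. Olfm4, a marker of crypt base columnar cells (chr14:79999249-80001249), went from 24.2, 22.0 and 22.7 CPM to 8.93, 9.36 and 8.92 CPM, a 2.52-fold loss with no overlap. Smoc2 fell 2.88-fold and Myc 1.70-fold. Among the feedback genes of Wnt signalling, Nkd1 fell 3.72-fold, on control levels of 5.63 to 10.5 CPM, and Axin2 1.30-fold, while Znrf3 was not called. Ctnnb1, which encodes beta-catenin, had a log2 fold of -0.12 and was not called. Sox9, a factor of crypt progenitors whose strand was not in the tables, has a region at each end of the gene, and these moved in opposite directions. The end at chr11:112781171-112783171 went from 68.8, 60.1 and 64.1 CPM to 25.7, 28.7 and 25.3 CPM, a 2.41-fold loss. The end at chr11:112787525-112789525 went from 20.1, 17.1 and 20.4 CPM to 47.5, 50.7 and 43.4 CPM, a 2.48-fold gain.

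Interferon-stimulated and antigen presentation genes had the lowest median of the lists, -0.87. Of 17 tested regions 13 (76.5%) were called lower and 1 higher, and at least 11 were lower under each scaling tried. Irf9, the DNA-binding part of the ISGF3 complex (chr14:55603116-55605116), went from 71.1, 60.4 and 68.8 CPM to 17.5, 15.1 and 16.4 CPM, a 4.07-fold loss (log2 fold -2.03, SE 0.14, adjusted p = 4.3e-41). Usp18, which removes the ubiquitin-like protein ISG15, fell 3.91-fold, Oas1a, an oligoadenylate synthetase gene, 3.22-fold and Irf7 2.41-fold. Irf2, which restrains interferon responses, rose 1.32-fold, from 57.8, 51.7 and 55.3 CPM to 77.1, 64.3 and 76.0 CPM.

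Promoters of the immediate-early and AP-1 genes were called lower in 9 of 15 regions and higher in 0, with a median of -0.53. The share of lower calls was near the 53.6% of all promoter regions without a site. With the scaling from these promoters, 6 were lower and 5 higher. Egr1 (chr18:34859828-34861828, either gene end) had 114, 95.6 and 120 CPM in the controls and 33.2, 40.8 and 33.3 CPM with RANKL, a 3.06-fold loss. Its relative Egr2 fell 3.29-fold and Fos 1.47-fold, while Jun, as given above, and Klf4 and Klf6 were not called.

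Lists of housekeeping genes lay closer to 0, apart from the respiratory chain. Of 69 tested regions of cytosolic ribosomal protein genes 19 (27.5%) were called lower and 3 higher (median -0.16), and the balance turned to 6 lower and 18 higher when the trend with signal was removed. Translation factors and tRNA synthetases (16 lower and 4 higher of 40) and proteasome subunits (7 lower and 3 higher of 27) had medians of -0.16 and -0.17 and also turned under that scaling. Their directions thus rest on the scaling. Rpl10 fell 1.84-fold, from 104, 83.9 and 103 CPM to 53.2, 56.2 and 48.2 CPM, and Rpl39 1.96-fold, while the strongest of the list, the region of Rpl4 and Zwilch, was not called. Eif3c, a gene of the initiation factor that brings mRNA to the ribosome, rose 1.47-fold and Psma6, a proteasome core subunit gene, 1.44-fold. Subunits of the respiratory chain had 32 lower (64.0%) and 1 higher of 50 (median -0.34), with Cycs, the cytochrome c gene, 1.99-fold lower. The spliceosome list had 18 lower (50.0%) and 0 higher of 36 (median -0.30). With the scaling from these promoters the respiratory and spliceosome lists had 9 and 7 lower and 11 and 9 higher.

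Metabolic lists lay near or below the median of all these promoters. Cholesterol synthesis genes were lower in 16 of 20 regions (80.0%) and higher in 0 (median -0.48), with Dhcr7, the enzyme of the last step to cholesterol, 2.40-fold lower. Fatty acid oxidation genes were lower in 15 of 21 (71.4%) and higher in 2 (median -0.43). Acot1, an acyl-CoA thioesterase gene, fell 4.18-fold and Cpt1a, the mitochondrial import step, 1.87-fold. Genes of the unfolded protein response and ER chaperones were lower in 13 of 19 (68.4%) and higher in 0 (median -0.48), with the sensor kinase Eif2ak3 2.03-fold lower and Xbp1 1.55-fold lower. Glycolysis genes were lower in 9 of 19 (47.4%) and higher in 1 (median -0.32). Slc2a1, the glucose transporter GLUT1, fell 1.97-fold. The higher call was Gapdh, which was not called without RANKL replicate 1 or RANKL replicate 2. Under the scaling from these promoters the median of these lists lay between -0.10 and 0.06.

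Promoters of histone deacetylases, acetyltransferases and related genes were called at about the share of all such promoters. In the 32 regions of this list 18 were called lower and 3 higher (56.3% and 9.38%, against 53.6% and 5.18%), with the same median of -0.38. With the scaling from these promoters 6 were lower and 11 higher. Hdac5 fell 2.21-fold, from 36.5, 37.5 and 41.6 CPM to 15.7, 18.7 and 17.6 CPM, Hat1 2.12-fold and Hdac1 1.42-fold. Of 2 regions of Hdac4, the one at chr1:92195009-92197009 rose 1.85-fold, from 5.80, 4.73 and 3.56 CPM to 8.21, 10.3 and 7.72 CPM, a call lost without RANKL replicate 2 or control replicate 3 and with the signal trend removed (adjusted p = 0.093, 0.078 and 0.070). The stronger one, at chr1:92179574-92181574, fell 1.37-fold. The other higher calls were regions shared by Sirt2 and Nfkbib and by Brd2 and H2-DMa, at 1.25-fold and 1.23-fold (adjusted p = 0.017 and 0.018). Hdac2, with a log2 fold of 0.26, and Crebbp, the gene of CBP, with 0.17, were not called.

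Differentiated lineages were mixed. Enterocyte genes were lower in 9 of 20 regions (45.0%, against 53.6% of all such promoters) and higher in 2 (median -0.31). With the scaling from these promoters the balance turned to 4 lower and 7 higher (median 0.07). Dpp4, a brush border peptidase (chr2:62410878-62412878), fell 4.48-fold, from 41.7, 45.0 and 44.8 CPM to 12.9, 9.66 and 7.72 CPM, while Apoa4, a lipoprotein gene, rose 1.64-fold, from 26.5, 31.7 and 30.0 CPM to 50.0, 46.2 and 49.9 CPM. The master factors Hnf4a and Cdx2 were not called. Of 10 secretory lineage regions 2 were lower (Agr2, 2.23-fold, and Insm1) and 2 higher (Mmp7, 1.79-fold, and Dclk1, 3.04-fold, a tuft cell marker, on control levels of 3.09 to 3.38 CPM). Epithelial markers were lower in 8 of 11 (72.7%) and higher in 0 (median -0.46), with Krt18 1.94-fold and Epcam 1.30-fold lower. With the scaling from these promoters 4 were lower and 2 higher (median -0.08).

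**Figure D4:**
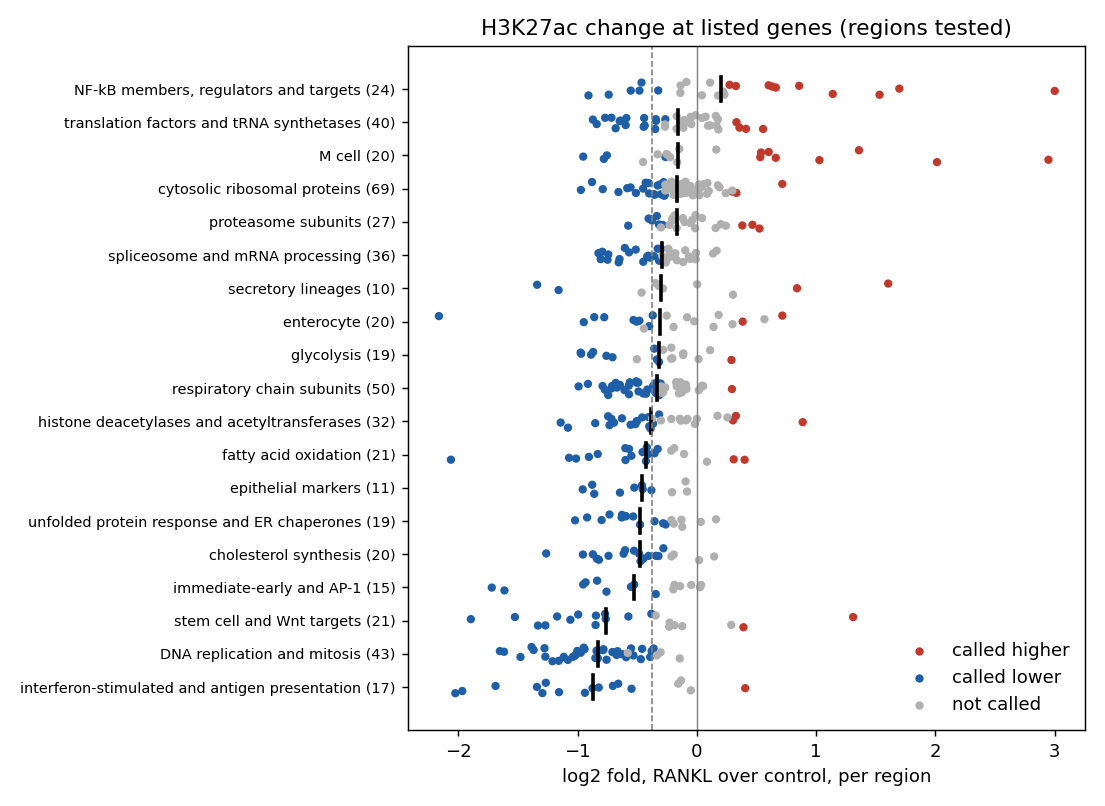
Log2 fold of H3K27ac, RANKL over control (x axis), at each tested promoter region without an ONECUT2 site in 19 gene lists (y axis, number of regions in parentheses), red where called higher, blue where called lower and grey where not called. Black bars are list medians, the dashed line is the median of all such promoters at -0.38, and the NF-kB list, with a median of 0.20, lies at the top.

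Promoter sequence went with the direction of change. A RefSeq promoter sequence could be matched to 8096 of the tested regions. Their median GC content was 61.5% and their median ratio of observed to expected CpG 0.77, against 56.3% and 0.57 over 21263 protein-coding promoters. Regions called lower had a median ratio of 0.80 and those called higher 0.62. The 103 with a log2 fold of at least 1 had 0.33, as at Plb1 and Ccdc33 above. Of the 380 promoters with a ratio under 0.2, 29.2% were called lower and 14.7% higher, with a median log2 fold of -0.10. Of the 1044 with a ratio of 1 or more, 61.6% were lower and 2.30% higher, with a median of -0.40.

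CpG content and signal went together, with a median level of 14.6 CPM in the first of these bins and 51.0 CPM in the last. Within decile 9 of signal the 176 promoters with a ratio under 0.4 had a median of -0.34, with 15.9% higher and 52.3% lower. The 1652 with a ratio of 0.6 or more had a median of -0.51, with 2.12% higher and 72.2% lower. In each of the 10 deciles the median was lower in the CpG-rich promoters.

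**Figure D5:**
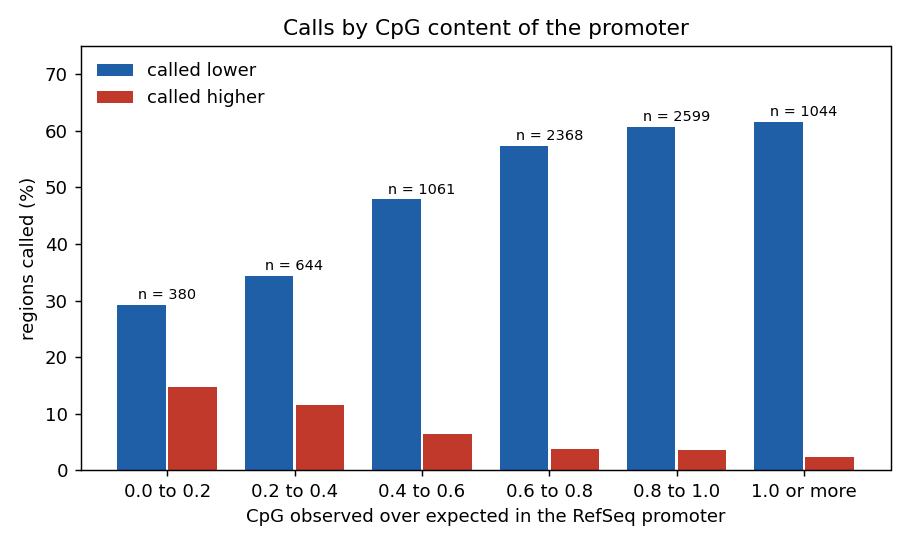
Share of promoter regions without an ONECUT2 site called lower (blue) or higher (red) with RANKL (y axis, percent of tested regions) by observed over expected CpG in the RefSeq promoter (x axis), with the number of regions above the bars. Lower calls go from 29.2% to 61.6% and higher calls from 14.7% to 2.30% from the first bin to the last.

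Short motifs were counted on both strands of these 300 bases, with overlapping matches kept. A match is a run of letters and not a shown binding site. Motif shares were not matched for CpG content, and promoters called higher were poorer in CpG than those called lower (median ratio 0.62 against 0.80). The ONECUT core ATCAATA was in 0.62% of promoters without a listed site, in 6.03% of those with a site and in 1.70% of all RefSeq promoters. Promoters with and without a site were told apart by listed ONECUT2 sites, so the rule itself favours such a difference. Among promoters without a site the core was in 0.75% of those called higher (3 promoters) and 0.50% of those called lower (22 promoters). AP-1 (TGACTCA) was in 3.58% of them, 9.73% of those called higher, 2.99% of those called lower and 4.66% of all RefSeq promoters. NF-kB (GGGACTTTC, GGGAATTTC or GGGAAATTC) was in 2.49% of those called higher (10 promoters), 0.61% of those called lower (27 promoters) and 0.80% of all. E2F (TTTCGCGC, TTTGGCGC or TTTCCCGC) ran the other way, at 1.25% of those called higher (5 promoters), 4.71% of those called lower and 2.41% of all. The 284 promoters with an E2F match had a median log2 fold of -0.56 and 73.2% were called lower. The 7812 without one had a median of -0.38, with 53.9% lower. The 287 with a CRE (TGACGTCA, in 2.23% of all) had a median of -0.50 and 66.2% were called lower. The 7809 without a CRE had a median of -0.38, with 54.2% lower.

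Motifs of CpG-rich promoters were more frequent in those called lower. GGGCGG was in 71.7% of those called lower and 55.6% of those called higher (46.2% of all), CCGGAAG in 21.5% and 9.48% (11.6% of all), GCATGCGC in 6.43% and 3.74% (3.52% of all), and the YY1 motif AAGATGGC in 5.09% and 2.24% (3.05% of all). CCAAT was in 42.4% and 32.4% (38.2% of all), and the TATA box TATAAA in 5.93% and 11.0% (12.6% of all). GAGGAAGT, of the SPI1 and SPIB type, was in 4.74% of those called higher, 2.67% of those called lower and 3.13% of all. The interferon motif TTCNNTTTC (8.15% of all), the TCF and LEF motif CTTTGAT (3.22% of all) and the HNF4 motif CAAAGTCCA (0.45% of all) were in 6.73%, 2.99% and 1.25% of those called higher and in 6.47%, 2.22% and 0.38% of those called lower. For HNF4 the higher share is 5 promoters.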

How the data were processed

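H3K27ac was compared between 3 RANKL and 3 control libraries on the raw whole-number counts per region that the authors deposited. Regions lie on mm10, the build named in the submitters' processing notes, and region coordinates are printed as deposited. Whether their start counts from 0 is not given in the sources used here and would change the class of 1 region. The submitters' processing notes name DiffBind for the ONECUT2 table, and its version is not given in the sources used here. From that deposited table came site positions, the sign of the log2 fold change for the counts of sites higher and lower, and the highest FDR, an adjusted p-value of the authors. Gene starts came from RefSeq promoter and gene tables (GRCm38.p6) for 21887 protein-coding genes, 17492 of them with a strand.

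The test was the quasi-likelihood test of edgeR 4.0.16 under R 4.3.3, with TMM factors, filterByExpr and Benjamini-Hochberg adjustment over all 54765 regions kept. A simulated set of counts was used to check the fit. In it few regions were changed, as many raised as lowered, with no signal trend, so it could not check the scaling. The alternatives were DESeq2 1.42.0 and others given in the closing section. Replicate numbers mark shared differentiation experiments, per the labels, yet same-numbered libraries had correlations of their deviations of 0.014, -0.027 and -0.0073. All libraries came from 1 animal's line, so p-values measure the spread between experiments. Input libraries were not analysed here.

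The set of regions, the 22 gene lists and the motifs were chosen with earlier results of these data known. Named regions were the 8 called gains and 8 called losses with the smallest adjusted p, a log2 fold of at least 1 in size and no overlap between arms; the 5 strongest; the 5 strongest not called; per list the clearest called gain, the clearest called loss and the strongest; the 5 clearest with 2 or more starts; and the 3 gains and 3 losses farthest from a site. Other list members were named after their values were seen, and a few results are not reported here.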

Additional observations from a re-analysis of the deposited data

How the results depend on the processing

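Under 14 other fits, the count of promoter regions without a site called higher was 526 and moved to 2162 with TMM factors from these promoters, 1209 with the signal trend removed and 140 against a minimum fold of 1.5. The count called lower was 5440 and moved to 2238, 3508 and 1093 in the same order. The median log2 fold of -0.38 moved to -0.0013 with TMM factors from these promoters, -0.18 with the signal trend removed and -0.28 on library size alone. The cause of the signal trend was not tested. With TMM factors from these promoters 6 named regions that were not called and had negative log2 folds were called higher. They were Cdx2 at 0.30, Jun at 0.24, Kat5 at 0.29, the region of Rpl4 and Zwilch at 0.21, Stat3 at 0.25 and Txnip at 0.36. Another 6 that were not called and had positive log2 folds, Rela among them, were also called higher. Leaving out 1 library at a time gave 440 to 511 higher, 4689 to 5330 lower and medians of -0.40 to -0.35. DESeq2 called 448 higher and 4766 lower. With the experiment number as a replicate block, 496 were higher and 5243 lower and the median was -0.38, and of the 80 named regions the block ended the call of Lpxn and Zfp91 alone. With a stricter rule for sites (none within 5 kb), 479 were higher and 5090 lower. With starts known by strand only, a rule added after seeing the data, 424 were higher and 4524 lower. Of the named regions, Gabrp, Hdac4, Olfr1047, Gapdh and the region of Uqcrh and Lrrc41 also lost their call without 1 library or another. Others gained a call. Without control replicate 2, Jun (log2 fold -0.21), Srsf3 (-0.29) and the region of Rpl4 and Zwilch (-0.24) were called lower. Without RANKL replicate 3, Rela (0.28) was called higher. Against the minimum fold of 1.5, 20 of the 80 named regions lost their call, Nfkb2, Kif11, Apoa4 and Mmp7 among them. RANKL libraries were the shallower ones, and the filter on low counts left 32 regions untested.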

Other observations

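Changes were also found at promoters far from any listed site. Of those with a log2 fold of at least 1 in size, the 3 called gains farthest from a site were Gabrp, Olfr1047 and Spata6, a gene of sperm development, at 812, 1400 and 1354 kb. Spata6 (chr4:111718942-111720942) had 3.48, 4.51 and 6.19 CPM in the controls and 18.6, 15.4 and 17.1 CPM with RANKL, a 3.59-fold gain. Gabrp and Olfr1047 lay at 2.63 to 4.83 and 1.16 to 2.42 CPM in the controls. Among the losses farthest away were Epb41l3, a gene of the membrane cytoskeleton, and Styk1, at 1777 and 1764 kb. Epb41l3 (chr17:69074667-69076667) fell 3.31-fold, from 24.3, 32.0 and 36.8 CPM to 11.4, 8.15 and 8.92 CPM.

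Grouped by the letters at the start of their gene symbols, a grouping made after the values were seen, families with 20 or more regions differed in their medians. Over all promoter regions without a site 53.6% were called lower, with a median of -0.38. The 31 centrosomal Cep regions had a median log2 fold of -0.63, with 23 (74.2%) called lower, the 31 kinesin Kif regions -0.57, with 20 (64.5%) lower, and the 29 Ddx helicase regions -0.49, with 22 (75.9%) lower. The 294 Zfp zinc finger regions lay at -0.39, with 148 (50.3%) lower and 8 higher. The 28 olfactory receptor regions had a median of 0.36, and 24 were not called. The other 4 (14.3%) were called higher, against 5.18% of all promoter regions without a site and 14.8% of all regions. Olfactory receptor regions were weak, at a median level of 3.87 CPM. Regions away from gene starts without a site had medians of 0.31 and 0.38 in the 2 weakest deciles of signal. By chromosome, medians ran from -0.45 on X (314 regions) to -0.33 on chromosome 9 (594 regions).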
